A study of Mus musculus with 8 samples.

Results

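Genes that mark macrophages were followed in cultures of mouse embryonic fibroblasts, the connective tissue cells grown from dissociated embryos. The set comprised 10 genes, Lyz1, Lyz2, Itgam, Adgre1, Aif1, Marco, Cd14, Csf1r, Cd68 and Ptprc, and its probes were found by matching the RefSeq accession of each array probe to a gene symbol. In this way 9 of the 10 genes, of 19259 genes named on the array, were matched to 11 probes. Cd68 was not analysed here, because no accession on the array matched it in the gene table used. The cultures were Atm-/-, without a working copy of the kinase that reports DNA breaks, or Atm+/+ from littermates. Cultures of each genotype were read untreated (0 h) and at 4, 8 and 24 h of treatment with the radiation-mimicking, DNA-breaking compound NCS (neocarzinostatin). Each genotype and hour has 1 array, which gives 4 Atm-/- and 4 Atm+/+ arrays. All cells grew in 15% fetal calf serum, and the labels name neither the disrupted part of Atm nor the number of embryos or cell lines behind the arrays, so the p-values measure a spread between arrays that may be technical.

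Macrophages are phagocytes of the innate immune system. Their growth and survival depend on CSF1 receptor signalling, and the ETS-family factor PU.1, encoded by Spi1, drives much of their gene programme. Fibroblasts make CSF1, and tissue macrophages are present in the embryo when such cultures are started. The set covers several roles in these cells. Lyz1 and Lyz2 encode lysozymes that digest bacterial walls. Itgam encodes the alpha M integrin chain, Adgre1 a surface receptor of the adhesion class, Aif1 a calcium-binding protein of the actin skeleton, Marco a scavenger receptor and Cd14 a coreceptor for lipopolysaccharide. Csf1r encodes the CSF1 receptor, Cd68 a lysosomal membrane protein and Ptprc the CD45 phosphatase that blood cells other than mature red cells carry.

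Lyz1 and Lyz2 are neighbouring copies of one ancestral gene, and the letters before their start sites were set side by side. Shown are the 100 bases upstream of the annotated start from RefSeq, build GRCm38.p6, at chr10:117282273-117282372 on the minus strand for Lyz2 and chr10:117292869-117292968 on the minus strand for Lyz1, each 5′ to 3′, with the bases that differ between the copies in capitals.
Lyz2: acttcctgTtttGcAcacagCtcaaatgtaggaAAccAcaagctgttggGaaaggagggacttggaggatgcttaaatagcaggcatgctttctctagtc
Lyz1: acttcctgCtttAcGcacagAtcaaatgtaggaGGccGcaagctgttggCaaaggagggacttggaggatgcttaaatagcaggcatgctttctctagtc
The copies shared 92 of these 100 bases, and 0 of the last 50 bases differed. These bases lie before the start site and are not part of the RNA that a probe binds. The files hold no probe letters, so how much of one lysozyme RNA binds the probe of the other was not tested, and values of the pair are uncertain as separate measurements.

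Itgam is shown for the purine-rich letters GAGGAA, the core of many PU.1 binding sequences, which were searched on both strands of the 250 bases before each start site without overlap with another motif. The 100 bases nearest its start, at chr7:128062540-128062639 on the plus strand of GRCm38.p6, held the letters in each orientation, marked in capitals.
Itgam: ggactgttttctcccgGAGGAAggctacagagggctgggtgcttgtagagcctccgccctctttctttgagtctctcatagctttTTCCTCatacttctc
The letters occurred in 5 of the 7 genes of the set whose promoters were read, namely Marco, Ptprc, Itgam, Cd68 and Aif1. Of all 32851 promoters of that length, 23.3% held them. Ptprc had a promoter with the letters and a promoter without them, so a count by gene stands beside a share by promoter. Lyz1 and Lyz2 held 0, and Adgre1, Cd14 and Csf1r were not among the genes read. The match is a description of letters and does not show binding. Spi1 itself differed between genotypes by a log2 difference of -0.27 ± 0.17 (SE), which was not called (limma adjusted p = 0.322).

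Levels are log2 intensities after subtraction of the array's own 75th percentile, so that 0 is the level of that percentile, and a probe counts as measured where its spot was well above background on at least 2 arrays. Of the 11 probes 9 passed, for 8 genes, and every one of these 9 was well above background on all 8 arrays. Because each probe binds its RNA with its own strength, levels were compared between arrays and not between genes. Differences between genotypes are Atm-/- minus Atm+/+, fitted with limma over the 4 time points, and were called at a Benjamini-Hochberg adjusted p under 0.05 over 23273 probes. Errors of differences are standard errors (SE).

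The Atm-/- arrays shared a slide, the Atm+/+ arrays shared a different slide, and time points followed array positions 1 to 4, so that genotype cannot be told apart from slide, nor time after NCS from array position or time in culture. The Y-linked Ddx3y read -8.29 to -8.13 on Atm-/- arrays, where it was not well above background, and 3.16 to 3.57 on Atm+/+ arrays. The X inactivation transcript Xist, on its probe for NR_001463, read -3.21 to -2.94 on Atm-/- arrays and -8.20 to -7.89 on Atm+/+ arrays. Its probe for NR_001570 read -3.21 to -2.90 on Atm-/- arrays and -8.13 to -4.92 on Atm+/+ arrays, where it was well above background at 8 h alone. Embryo sex is not among the labels, and genotype cannot be told apart from it. Atm read -3.67 to -3.15 on Atm-/- arrays and -2.43 to -1.95 on Atm+/+ arrays, a check that is informative only if the probe lies in the deleted part. Of 22 fibroblast genes, collagens and matrix genes among them, 22 were well above background on all 8 arrays. The same held for 53 of 60 measured macrophage and monocyte genes, 8 of 9 endothelial genes and 7 of 9 epithelial genes of the lists below. Detection alone therefore does not tell the cell types apart. The Atm+/+ 24 h array had 1545 outlier spots, against 44 to 203 on the other arrays, and the spots of Lyz1 and Adgre1 were among them.

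The genotype comparison asks which transcripts differ between the cultures at all time points. Macrophage markers were lower in Atm-/- for 6 of the 8 measured genes (7 of 9 probes) beside a background of 7.39% of all tested probes called lower. They were higher for 0, beside 7.29% called higher. The 6 were Lyz1, Lyz2, Itgam, Adgre1, Cd14 and Csf1r, with differences from -1.45 to -1.04, or 2.06-fold to 2.73-fold lower. Marco and Aif1 did not pass. The count was 6 without the 24 h arrays, which include the array with most outlier spots, 5 without the 0 h arrays, and 4 without the 4 h or the 8 h arrays. With no time term it was 2, and Lyz2 (adjusted p = 0.0583), Itgam (0.0632 and 0.0814 on its probes), Adgre1 and Cd14 lost their calls. The median over the 9 probes was -1.20, and over all tested probes 0.01. Which cells of the cultures made these RNAs was not tested. In RNA from a whole culture, fewer such cells and less of these RNAs per cell cannot be told apart.

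Lyz2, the lysozyme gene used widely as a mark of myeloid cells, had levels of 2.03, 2.06, 2.56 and 3.26 in Atm-/- cultures (in the order 0, 4, 8 and 24 h, kept for all genes). Atm+/+ cultures had 3.22, 3.34, 4.11 and 4.58. The Atm-/- array was the lower of the pair at every hour, and the untreated Atm+/+ array was about level with the Atm-/- array at 24 h. The difference was -1.33 ± 0.09 (2.52-fold lower, 4 arrays against 4, limma adjusted p = 0.00247). Its neighbour Lyz1 read 0.94, 0.86, 1.31 and 2.02 on the Atm-/- arrays, and 2.30, 2.34 and 2.81 in Atm+/+ cultures up to 8 h. The Atm+/+ 24 h spot of Lyz1 was marked as an outlier and left out, which removes the 24 h pair from the difference of -1.45 ± 0.09 (2.73-fold lower, limma adjusted p = 0.00396). With that spot kept, at 3.21, the difference was -1.38 (adjusted p = 0.00232, and 0.000464 to 0.0445 over the alternatives).

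Itgam pairs with the beta 2 chain to form a receptor for complement-coated particles, and it was read by probes to both of its RefSeq transcripts. On the probe for NM_001082960 it read -3.83, -4.20, -3.76 and -2.43 on the Atm-/- arrays and -2.65, -2.50, -1.91 and -1.41 on the Atm+/+ arrays. The probe for NM_008401 gave -3.86, -3.91, -3.88 and -2.37 on the Atm-/- arrays and -2.74, -2.48, -2.12 and -1.38 on the Atm+/+ arrays. Both probes were lower in Atm-/- at each hour, by the widest margin at 8 h. The differences were -1.44 ± 0.16 (limma adjusted p = 0.00808) and -1.32 ± 0.15 (limma adjusted p = 0.00759), the first of them 2.71-fold.

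Adgre1, whose product is the classic surface mark of mouse macrophages, read 0.03, 0.05, 0.57 and 1.49 on the Atm-/- arrays. The Atm+/+ arrays gave 0.87, 1.26 and 1.80 at 0, 4 and 8 h, and the outlier spot at 24 h, left out of the fit, read 2.43. Adgre1 was lower in Atm-/- by -1.09 ± 0.12 (2.13-fold, 3 pairs of arrays, limma adjusted p = 0.0123). The call was lost without the 4 h arrays (-1.03, adjusted p = 0.0786) or the 8 h arrays (-1.03, adjusted p = 0.0730), and adjusted p ran from 0.00260 to 0.262 over the alternatives.

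Csf1r read 0.80, 1.11, 1.18 and 0.59 on the Atm-/- arrays and 1.82, 2.15, 2.40 and 2.13 on the Atm+/+ arrays. It was lower in Atm-/- in every pair, by -1.02 at 0 h up to -1.54 at 24 h. The difference was -1.20 ± 0.11 (2.30-fold lower, limma adjusted p = 0.00481), and it was called under all 14 alternatives. The genes for its ligands, Csf1 (0.21 ± 0.10, limma adjusted p = 0.219) and Il34 (-0.05 ± 0.08, limma adjusted p = 0.684), were not called.

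Cd14 read -0.43, 1.03, 1.54 and -0.18 on the Atm-/- arrays and 0.56, 1.86, 2.27 and 1.44 on the Atm+/+ arrays. It was lower in Atm-/- in every pair, by -0.73 at 8 h up to -1.61 at 24 h. The difference over all hours was -1.04 ± 0.16 (2.06-fold lower, limma adjusted p = 0.0182). Leaving out the 0 h, 4 h or 8 h arrays ended the call at -1.06, -1.11 and -1.15 (adjusted p = 0.0772, 0.0629 and 0.0539, range 0.00548 to 0.244 over the alternatives).

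Marco, a scavenger receptor that binds bacteria and particles, read -0.36, 0.97, 2.24 and 2.32 on the Atm-/- arrays and -0.22, 1.09, 2.63 and 2.53 on the Atm+/+ arrays. The curves of the genotypes ran close together. The difference was -0.21 ± 0.08 (95% interval -0.41 to -0.01, limma adjusted p = 0.136), and the end of that interval farthest from 0 is smaller in size than the fitted difference of each of the 6 called genes. Aif1, which encodes the microglia and macrophage protein Iba1, read -0.24, -1.39, -0.11 and 0.43 on the Atm-/- arrays and -0.02, 0.03, 0.37 and 0.58 on the Atm+/+ arrays. Only the Atm-/- 4 h array stood clearly below its pair, by -1.42, against -0.49 to -0.15 at the other hours. The fitted difference of -0.57 ± 0.23 was not called (95% interval -1.16 to 0.03, limma adjusted p = 0.171), and without the 4 h arrays it was -0.28.

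Ptprc, the general marker of blood cells, was near the limit of the arrays. Its probe for NM_001111316 read -8.32, -7.30, -7.20 and -7.32 on the Atm-/- arrays and -6.43, -5.84, -5.64 and -5.59 on the Atm+/+ arrays. It was well above background on 1 of 8 arrays, Atm+/+ at 8 h. The probe for NM_011210 read -8.33 to -6.78 on Atm-/- arrays and -6.66 to -5.68 on Atm+/+ arrays and was well above background on 0 of 8. Neither probe entered the tests, and no fold is given because Atm-/- arrays and nearly all Atm+/+ arrays offer only a bound. The lowest spots well above background lay between -6.17 and -5.58.

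**Figure D1:**
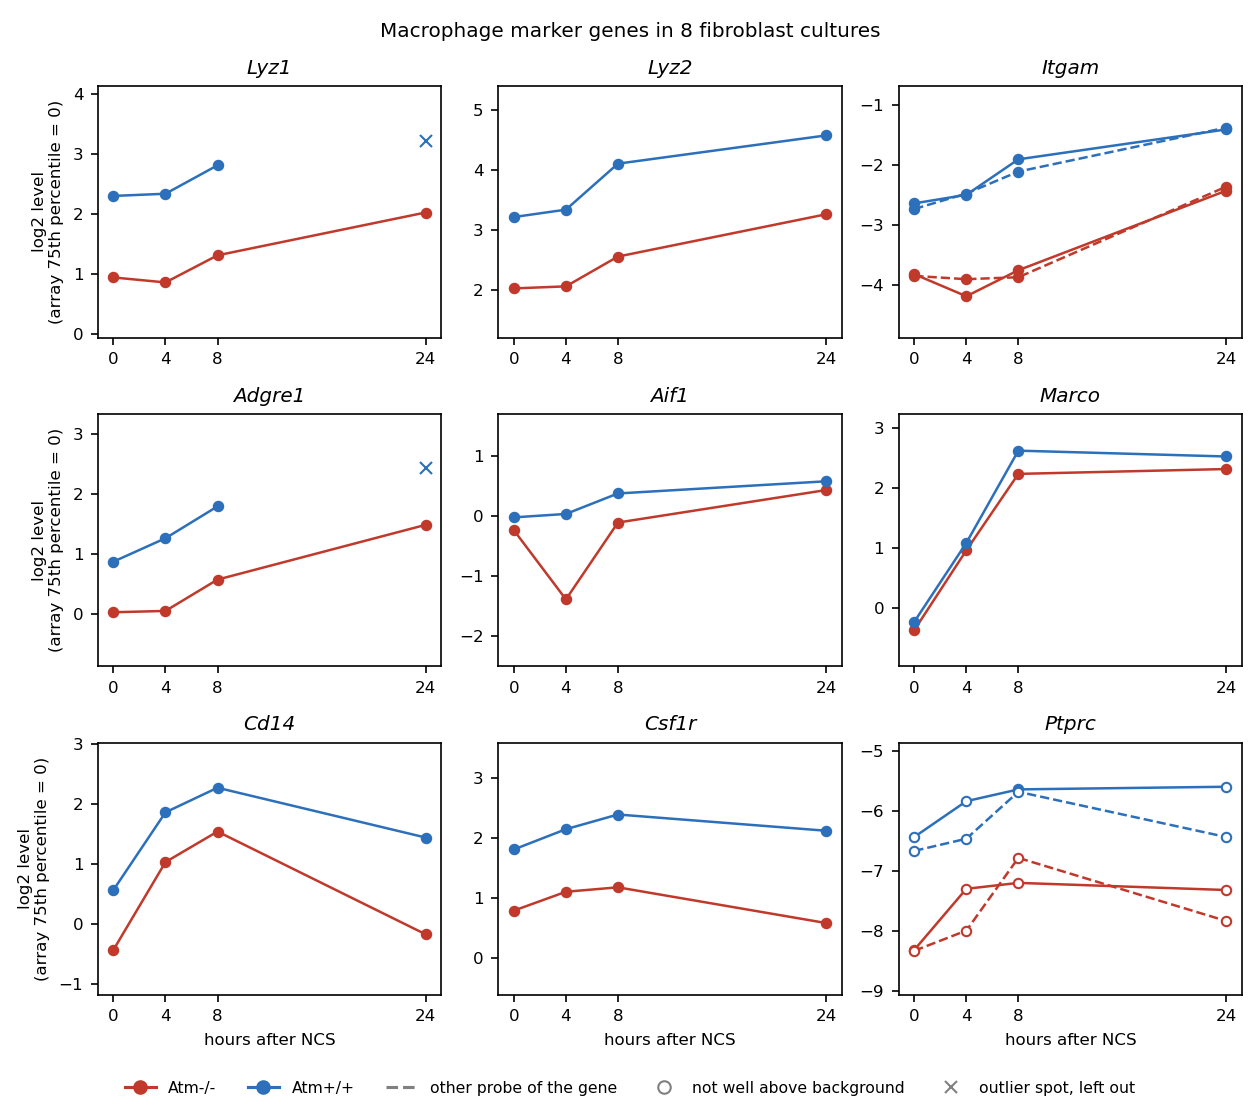
Log2 level of each macrophage marker gene (array 75th percentile at 0) against hours after NCS, 1 array per point, Atm-/- in red and Atm+/+ in blue. Every panel spans the same number of log2 units. Atm-/- lies below Atm+/+ for Lyz1, Lyz2, Itgam, Adgre1, Cd14 and Csf1r at each hour, the Marco curves nearly coincide, and Ptprc shows 1 reading well above background (filled point, Atm+/+ at 8 h).

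**Figure D2:**
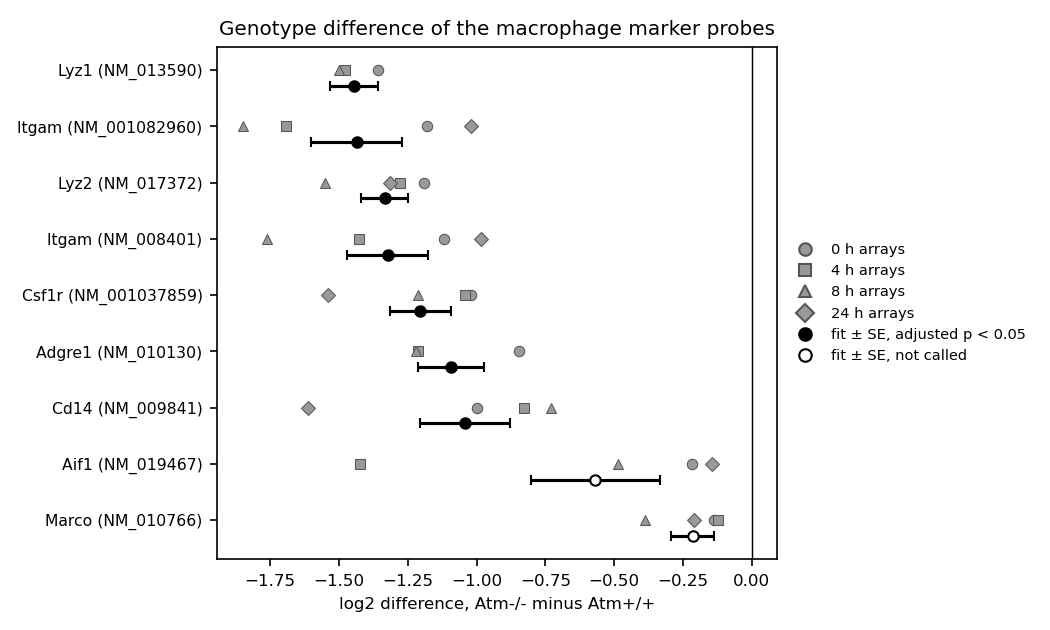
Log2 difference Atm-/- minus Atm+/+ for the 9 measured probes, at each time point (grey symbols, 1 array against 1) and as the limma fit with its standard error (black). The 7 called probes lie between -1.45 and -1.04, and Marco and Aif1 lie at -0.21 and -0.57.

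A wider list of macrophage and monocyte genes was read beside the set. Of 71 genes listed, 69 had a probe and 60 were measured. Of these 60, 43 were lower in Atm-/- and 0 higher, beside 7.39% of all tested probes called lower and 7.29% higher. Their median was -1.01. The complement C5a receptor C5ar1 (-2.33 ± 0.12, limma adjusted p = 0.00197), the inhibitory Fc receptor Fcgr2b (-2.23 ± 0.21, limma adjusted p = 0.00519) and the sialic acid receptor Siglec1 (-1.97 ± 0.08, limma adjusted p = 0.00135) differed most among those above background on all arrays. Fcgr1, the high-affinity Fc receptor, differed by -1.97 ± 0.15, or by -0.90 once its dim readings were raised to the lowest spot above background, and it was above background on 1 Atm-/- array and 2 Atm+/+ arrays. The list is not uniform, since 17 measured genes were not called. The summed level of the 57 genes read on every array, in units of the 75th percentile, was 58.2 to 65.2 on Atm-/- arrays and 95.8 to 121.7 on Atm+/+ arrays. Of genes made by resident tissue macrophages, Folr2, Mrc1, Mertk, Siglec1 and the complement genes C1qa, C1qb and C1qc were well above background on all 8 arrays, and Cd163, Vsig4, Timd4 and Lyve1 were among the 9 genes above it on 0 of 8.

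Genes that work with the markers were read from lists of their own, and Itgb2, Msr1 and Csf2rb stand in the wider list too. Over all tested probes, 7.39% were called lower and 7.29% higher. Of 7 measured partners of the alpha M integrin, 2 were lower in Atm-/-, the beta 2 chain Itgb2 (-1.05 ± 0.16, limma adjusted p = 0.0181) and the integrin activator Fermt3 (-1.04 ± 0.09, limma adjusted p = 0.00384), which leukocytes make, while talin Tln1, made in most cells, read 0.05 ± 0.09 (limma adjusted p = 0.728). Of 9 measured partners of CD14 in lipopolysaccharide sensing, limma called 0, with 2 at an unadjusted p under 0.05. Tlr4, the signalling receptor of that complex, read -0.10 ± 0.13 (limma adjusted p = 0.652). Scavenger receptors other than Marco, of several classes, were lower for 4 of 11 and higher for 0. The 4 were Msr1 (-1.83 ± 0.11, with 2 Atm+/+ outlier values left out), Stab1 (-1.39 ± 0.08), Scara5 (-1.20 ± 0.18, above background on 2 of 4 Atm-/- arrays) and Cd36 (-1.71 ± 0.26, or -1.18 with dim readings raised). Lysosomal genes, which all cell types use, were called in 0 of 19 with limma, with 2 at an unadjusted p under 0.05 and a median of -0.02. Of the CSF1 receptor ligands and colony-stimulating factor receptors, 1 of 7 was lower, the receptor chain Csf2rb (-1.05 ± 0.18, limma adjusted p = 0.0225). Beside the share over all probes, 1 call among 7 genes is not read as a result about that list.

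Markers of several other cell types moved with genotype, and their part in the result was not tested. Their counts stand beside the 7.39% of all tested probes called lower and the 7.29% called higher. Neutrophil genes were lower in Atm-/- for 6 of 8 measured and higher for 0, with a summed level of 0.571 to 0.812 on Atm-/- arrays and 1.59 to 2.58 on Atm+/+ arrays. The calgranulin gene S100a9 had the largest difference of those above background on all arrays (-3.36 ± 0.11). The granule gene Ngp, dim on all Atm-/- arrays, was at least 5.95-fold lower, and its Atm+/+ arrays alone put it in the count. Mmp8, also counted, was above background on 1 array of each genotype. Its difference fell from -1.15 to -0.27 with dim readings raised. The neutrophil genes Ltf and Cxcr2 were well above background on 0 of 8 arrays. T and NK cell genes were lower for 3 of 7, Cd3e (-0.95), Lck (-0.88) and Cd3g (at least 2.68-fold lower). Cd3g was above background on 0 Atm-/- and 4 Atm+/+ arrays, so its Atm+/+ arrays alone put it in the count. Klrd1, not called, was above background on 4 Atm-/- and 0 Atm+/+ arrays. The difference was negative for 5 of the 7 genes, and the highest was 0.56. Summed levels were 0.770 to 0.880 in Atm-/- and 0.988 to 1.16 in Atm+/+. Cd3d, Ncr1, Klrb1c and Prf1 were among the listed genes above background nowhere. B cell genes were lower for 1 of 6, the adaptor Blnk (-0.65), and the list's median was -0.06, with summed levels of 0.555 to 0.793 in Atm-/- and 0.737 to 1.00 in Atm+/+, and Cd79a, Ms4a1 and Cd22 were above background nowhere.

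Blood stem and progenitor genes were lower for 4 of 7, the factors Lyl1 (-1.54), Tal1 (-1.17, or -0.95 with dim readings raised) and Runx1 (-0.47) and the surface protein gene Cd34 (-0.58), which endothelial cells and fibroblasts also make. The difference was negative for 5 of the 7 genes, the highest was 0.90, and 0 were called higher. Their summed level was 5.36 to 6.59 on Atm-/- arrays and 7.72 to 9.64 on Atm+/+ arrays. Red cell and platelet genes were split, 1 lower and 2 higher of 11, with the platelet chemokine Pf4 at -1.49 ± 0.27 and the red cell genes Klf1 at 0.50 ± 0.08 and Alas2 at least 2.04-fold higher. Their summed level was 1.30 to 1.67 on Atm-/- arrays and 2.31 to 2.62 on Atm+/+ arrays. A sum weighs bright probes most. The mean log2 level of the same genes was -4.27 to -4.02 on Atm-/- arrays and -4.20 to -4.04 on Atm+/+ arrays. Mast cell genes were called in 0 of 4 with limma, with 1 at an unadjusted p under 0.05 and summed levels of 0.30 to 0.37 in Atm-/- and 0.32 to 0.34 in Atm+/+. Of the dendritic cell genes only 3 were measured, and 1 was higher, the class II gene H2-Aa (1.45 ± 0.09), with summed levels of 0.229 to 0.307 in Atm-/- and 0.143 to 0.356 in Atm+/+. The defining dendritic genes Flt3, Xcr1 and Clec9a were above background nowhere.

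Fibroblast genes were lower in Atm-/- for 8 of 22 and higher for 0, with a median of -0.30 against -1.15 for the 8 measured macrophage markers at 1 probe per gene. The summed level of the 19 read on every array was 903 to 1058 on Atm-/- arrays and 1085 to 1207 on Atm+/+ arrays. Pdgfra, a growth factor receptor of mesenchymal cells, was lower by -1.16 ± 0.11. Endothelial genes were higher for 3 of 9, with summed levels of 4.04 to 7.39 in Atm-/- and 2.74 to 3.97 in Atm+/+. Epithelial genes were higher for 7 of 9, with summed levels of 9.38 to 15.8 in Atm-/- and 5.22 to 9.94 in Atm+/+. Among the 7, Epcam was above background on 3 Atm-/- arrays and 0 Atm+/+ arrays, so its Atm-/- arrays alone put it in the count. Its difference fell from 0.92 to 0.24 with dim readings raised. Cldn7, above background on 3 Atm-/- and 2 Atm+/+ arrays, fell from 1.21 to 0.90. Epithelial genes had a median of 0.88 and were led by the tight junction gene Cldn4 (1.22 ± 0.13).

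**Figure D3:**
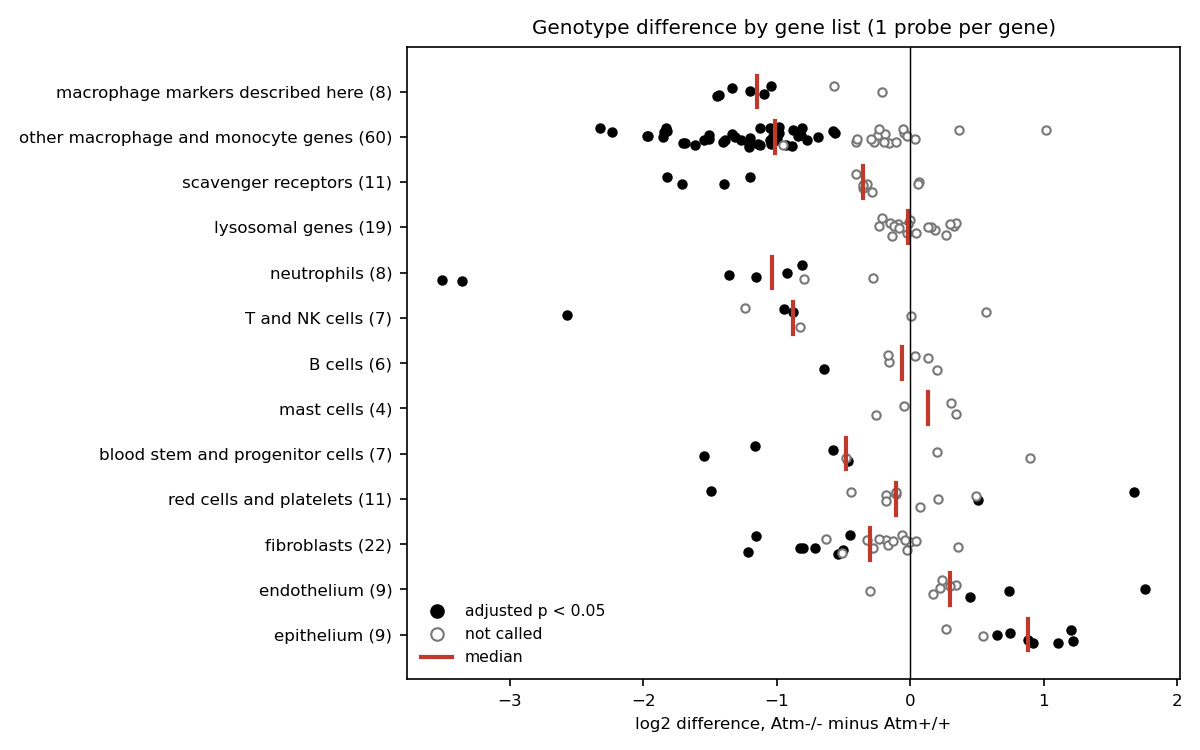
Log2 difference Atm-/- minus Atm+/+ of each measured gene by list, 1 probe per gene (the one with the highest mean), with the number of genes in parentheses, called genes filled and the median as a red bar. Macrophage markers centre on -1.15 and the wider macrophage and monocyte list on -1.01, lysosomal genes on -0.02 and epithelial genes on 0.88.

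Responses to NCS ask what changes at 4, 8 and 24 h relative to the untreated cultures, over both genotypes (2 arrays against 2). These responses share the 0 h arrays, so each is given on its own. At 4 h limma called 0 of the 8 measured markers, with 2 probes at an unadjusted p under 0.05, beside 0.0988% of all tested probes called higher. At 8 h 1 of 8 was higher, Marco, beside a background of 0.241%. At 24 h 5 of 8 were higher, Marco, Lyz2, Lyz1, Adgre1 and Itgam on 1 of its 2 probes, beside 1.03%. At each hour 0 were lower, beside 0.00859% of probes called lower at 4 h, 0.0172% at 8 h and 1.38% at 24 h.

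Marco had the largest response of the markers at 8 h and 24 h, and Cd14 at 4 h. It was higher than untreated by 1.33 in Atm-/- and 1.31 in Atm+/+ at 4 h, by 2.60 in Atm-/- and 2.85 in Atm+/+ at 8 h, and by 2.69 in Atm-/- and 2.76 in Atm+/+ at 24 h. Over both genotypes the 8 h response was 2.73 ± 0.11 (6.63-fold higher, limma adjusted p = 0.00346) and the 24 h response 2.72 ± 0.11 (6.59-fold higher, limma adjusted p = 0.0121). The 4 h response of 1.32 ± 0.11 missed the threshold (limma adjusted p = 0.0538) and passed it under 5 of 11 alternatives, where it lay between 0.00659 and 0.170. The 8 h call held under all 11. The 24 h call held under 8 of 11 and was lost with no filter on dim probes (adjusted p = 0.0506), without the 4 h arrays (0.127) and without the 8 h arrays (0.0742), with a range from 0.00112 to 0.127.

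Cd14 followed a course of its own. It was higher than untreated by 1.46 in Atm-/- and 1.29 in Atm+/+ at 4 h, and by 1.97 in Atm-/- and 1.70 in Atm+/+ at 8 h, and at 24 h by 0.26 in Atm-/- and 0.87 in Atm+/+. Neither the 4 h response (1.38 ± 0.23, limma adjusted p = 0.403) nor the 8 h response (1.84 ± 0.23, limma adjusted p = 0.0910) was called, although all 4 treated arrays behind these values stood above their untreated pair. The 8 h response passed under 3 of 11 alternatives, with adjusted p from 0.0217 to 0.236.

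The lysozymes, Itgam and Adgre1 were highest at 24 h in both genotypes, counting the outlier spots of Lyz1 and Adgre1. Lyz2 was above untreated at 24 h by 1.24 in Atm-/- and 1.36 in Atm+/+, a response of 1.30 ± 0.12 (2.46-fold higher, limma adjusted p = 0.0444). Itgam responded by 1.42 ± 0.21 on the probe for NM_008401 (limma adjusted p = 0.0491) and by 1.31 ± 0.23 on the probe for NM_001082960 (limma adjusted p = 0.0582). For Lyz1 (1.13 ± 0.14) and Adgre1 (1.58 ± 0.19, limma adjusted p = 0.0491 for each) the 24 h response rests on the Atm-/- array, since the Atm+/+ spot was left out. With the outlier spots kept they were 1.00 (adjusted p = 0.0464) and 1.51 (adjusted p = 0.0391). Apart from Marco, the 24 h calls lay near the threshold. In all, 0 markers were called at 24 h without the 4 h arrays, without the 8 h arrays or without the filter on dim probes.

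Csf1r and Aif1 were not called at any hour. Csf1r differed from untreated at 24 h by -0.21 in Atm-/- and 0.31 in Atm+/+, a response of 0.05 ± 0.16 (95% interval -0.35 to 0.45, limma adjusted p = 0.860). Aif1 at 24 h gave 0.64 ± 0.33 (95% interval -0.21 to 1.48, limma adjusted p = 0.287).

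**Figure D4:**
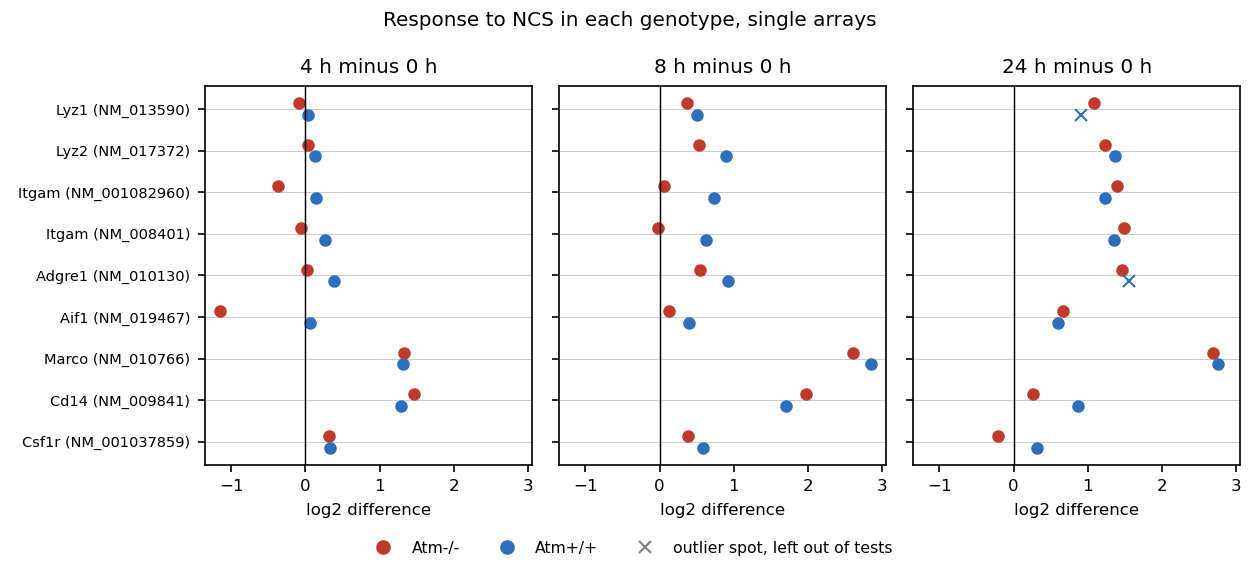
Log2 difference of each treated array from the untreated array of the same genotype, at 4, 8 and 24 h, with Atm-/- above Atm+/+ in each row and crosses for the outlier spots left out of tests. Marco stands at 2.60 and 2.85 at 8 h in Atm-/- and Atm+/+, Cd14 returns towards 0 at 24 h, and the lysozymes, Itgam and Adgre1 lie further right at 24 h than at 8 h.

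In the wider macrophage and monocyte list 1 of 60 genes was higher at 4 h, 2 at 8 h and 8 at 24 h, and 0 were lower at any of these hours. Of all tested probes, 0.0988% were called higher at 4 h, 0.241% at 8 h and 1.03% at 24 h, and 0.00859%, 0.0172% and 1.38% lower at the same hours. Cybb, the catalytic subunit of the phagocyte NADPH oxidase, was the one at 4 h (1.52 ± 0.11, limma adjusted p = 0.0331), and Cybb (2.48 ± 0.11) and pleckstrin Plek (1.77 with its dim untreated reading raised) were those at 8 h. At 24 h the 8 included Cd52 (1.42 ± 0.11), Siglec1 (0.89 ± 0.12) and the lysosomal phosphatase gene Acp5 (0.92 ± 0.11). Among the ligands of myeloid growth factor receptors, Csf2, dim in both untreated cultures, was at least 3.88-fold higher at 4 h and at least 3.09-fold higher at 8 h, and Il34 was higher at 24 h by 0.72 ± 0.11 (limma adjusted p = 0.0491).

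Whether the response to NCS differed between genotypes was tested as the interaction of genotype with treatment, treated at any hour against untreated. That model leaves 2 residual degrees of freedom, and a difference of response at a single hour was not tested. Limma called 0 of the 9 marker probes, and 0 had an unadjusted p under 0.05, beside 0% of 22928 probes called and 568 at an unadjusted p under 0.05. The differences of response ran from -0.47 for Aif1 to -0.06 for Cd14. For Marco it was -0.10 ± 0.21 with a 95% interval from -0.67 to 0.47, and for Lyz2 -0.19 ± 0.22 with an interval from -0.78 to 0.40. Differences of that size could not be resolved with these arrays.

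Within the set, time courses could be set side by side over the 8 arrays, which share genotype, slide and hour, so that correlations are descriptions only. With each genotype's mean removed, Lyz2 correlated with Itgam on NM_001082960 at r = 0.94 (8 arrays), with Adgre1 at r = 0.98 and with Lyz1 at r = 0.98 (7 arrays each). Cd14 correlated with Csf1r at r = 0.93 (8 arrays) and with Lyz2 at r = 0.10. Across 12832 genes outside the set, the 10 whose levels most resembled the mean of the markers over the 8 arrays had r from 0.98 to 0.99. That mean is over 8 genes on 7 arrays and over 6 genes on the Atm+/+ 24 h array, where Lyz1 and Adgre1 were left out. The 10 were Serpina3n, Ccdc122, Gbp3, Creb3l1, Sp140, Rps6ka1, Ank3, Lrrc25, Tor3a and Fer. Ank3 was dim, at -6.38 to -5.26, near the lowest spots well above background (-6.17 to -5.58). Serpina3n, a secreted protease inhibitor of the acute phase, read -1.14, -1.09, -0.38 and -0.31 on the Atm-/- arrays and -0.56, -0.12, 0.39 and 0.24 on the Atm+/+ arrays.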

How the data were processed

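RNA of 8 cultures was labelled with Cy3 and read on one-colour Agilent arrays of an mm9 design. The deposited intensity of each spot came from Feature Extraction 10.5.1.1, per the file headers, as a processed signal, and the median spot and local background signals are given beside it. The background and dye steps behind the processed signal are not given in the sources used here. The deposited noncoding tables hold 0 of the marker probes and were not used.

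Control spots were left out, spots of a probe averaged on the log2 scale (markers have 1 spot each), and the array's 75th percentile over 37246 probes subtracted. A value was left out where every spot of the probe was an outlier. Probes well above background on at least 2 arrays were kept (23299). RefSeq accessions without versions gave 1 symbol to 22216 probes, through a GRCm38.p6 gene table. The number of arrays limits the precision.

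limma 3.58.1 (R 4.3.3), two-sided and adjusted by Benjamini-Hochberg over all kept probes with a value, used time point and genotype as terms. A separate model added the interaction of genotype with treatment, which compares treated arrays of any hour with untreated arrays. The interaction of genotype with each time point was not fitted. The genotype fit was run on simulated arrays with independent noise and no slide or sex effect. That run cannot show how slide or sex weighs on the genotype calls. Markers, lists and tests were chosen with earlier results of these data known. Genes outside the set were named by a rule: up to 4 per list with the largest called genotype difference, the 10 most like the markers' mean, and the genes that explain a count. Alternatives covered scaling, background, filter, outliers, dim values, variance trend, the time term and each time point.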

Additional observations from a re-analysis of the deposited data

How the results depend on the processing

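The count of 6 macrophage markers lower in Atm-/- kept within 1.5 times under the scaling, background, filter, outlier, dim-value and variance alternatives, and was 4 to 6 when the arrays of one time point were left out. Without a time term only 2 genes passed. No marker changed direction in the genotype comparison. At 4 h the count of 0 higher markers became 1 (Marco) when scaled to the median, with normexp background, with probes above background on all 8 arrays, with dim values raised or with a variance trend. At 8 h the count of 1 became 2 (with Cd14) with normexp background or a variance trend, and was 1 to 2 when time points were left out. At 24 h the count of 5 became 3 when scaled to the median, 1 when outlier spots were removed before scaling and 0 with no filter on dim probes, and was 0 when the 4 h or the 8 h arrays were left out. The difference of response gave 0 throughout. Values near 0 reversed for Lyz1 at 4 h when scaled to the median (0.014), and the difference of response of Cd14 ran from -0.22 to 0.22 when time points were left out, positive without the 24 h arrays. The causes were not tested. Keeping outlier values was chosen after seeing the data, and leaving out 1 array removes its pair from the genotype difference. No paired analysis was possible because the labels give no replicate numbers by which to pair arrays, other than the pairing by hour that the time term makes, and dropping that term gave the 2 genes above. Single spots near background, as for Ptprc, allow no fold.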
